A study of Canis lupus familiaris with 14 samples.

Results

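The 10 genes described here encode enzymes of glycolysis, HK1, HK2, GPI, PFKL, PFKP, ALDOA, TPI1, PGK1, ENO1 and LDHA. They were chosen by name from the textbook pathway, and a gene was read from every probe set of the array that is annotated with exactly 1 of these symbols. All 10 were on the array, among 15115 genes with such a probe set, and they held 25 of the 29254 probe sets with 1 symbol. A further 6 probe sets name GPI or LDHA together with other symbols and were kept apart. No rule on gene values or fold changes picked the members, but earlier results of these data were known when they were chosen.

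Glycolysis splits glucose into pyruvate in the cytosol and yields ATP without oxygen. Hexokinase traps glucose in the cell as glucose 6-phosphate, phosphofructokinase commits the sugar to breakdown, and the enzymes from aldolase to enolase turn it into phosphoenolpyruvate, with phosphoglycerate kinase making ATP on the way. Lactate dehydrogenase regenerates the NAD that the pathway uses. Dividing lymphocytes and many lymphomas take up much glucose, which is the basis of imaging lymphoma with labelled glucose.

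RNA from 14 lymph node samples of dogs was hybridised to GeneChip Canine Genome V2.0 Arrays, 1 array a sample, and read as MAS 5.0 signals. Companion dogs with naturally occurring lymphoma gave 10 fine needle aspirates, taken before an investigational PI3K inhibitor was given. The labels, which follow immunostaining for CD79a and CD3, call FS22, FS25 and NE45 T-cell lymphoma (n = 3) and the other 7, NE41, NE42, FS21, RB03, RB10, RB16 and RB07, B-cell. The 4 normal samples, labelled as node tissue and described as aspirates in the study's methods, came from 3 colony Beagles without lymphoma, 63, 2970 and 3024, with 3024l and 3024r from the same dog. FS21, RB07, FS22 and FS25 had relapsed after chemotherapy, and the other lymphoma dogs had received none. The lymphoma dogs were Boxers (RB07, RB10 and FS25), retrievers (NE42, NE45 and RB16), a Pointer (RB03), a Beagle (FS22) and mixed breeds (NE41 and FS21). Home or colony and, but for FS22, breed cannot be told apart from disease. The study's clustering of profiles from these samples split the lymphomas into class E-J (FS21, NE41, NE42, RB03, RB16 and FS22) and class K-N (RB07, RB10, FS25 and NE45). Because the classes came from these profiles, values by class are given as a description with no test. A later fit by label, without the dogs whose markers went against it, fell along the classes, and its p-values are no test of them. A value below is the log2 of the signal of a probe set, and a gene value is the mean over the probe sets of the gene. A signal under 100, or 6.64 on the log2 scale, is called dim here. The probe sets of a gene are numbered by their mean signal, with 1 the brightest.

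The lineage markers went against the label on 3 arrays. CD3E, part of the T-cell receptor complex, had values of 12.11 in RB07 and 12.54 in RB10, both labelled B-cell, close to the 12.48 of FS25 and the 12.56 of NE45. FS22, labelled T-cell, had a CD3E value of 8.80 and a CD79A value of 10.09, and CD79A, which signals for the B-cell receptor, lay between 9.29 and 11.52 in the other lymphomas of class E-J and between 2.55 and 8.11 in class K-N. The summed signal of 11 T-cell markers was 3212 to 15990 in class E-J, 15610 to 34280 in the normal nodes and 51020 to 73330 in class K-N. On the normal array 3024l the ratio of the 3′ to the 5′ GAPDH control probe set was 23.2, against 3.30 to 8.94 on the other 13 arrays, so probe sets far from the 3′ end of a transcript can read low there. The arrays had median signals of 85.5 to 131. Each sample is a mixture of cells, so fewer cells of a type cannot be told apart from less RNA per cell.

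ENO1 probe set 1 was higher in each of the 10 lymphomas than in each normal node, by 1.00 on average on the log2 scale. At its brightest probe set PFKL was higher in every lymphoma of class E-J than on any other array. Of all probe sets, 2.48% were higher in every lymphoma than in every normal dog, and 8.17% in every E-J lymphoma. Another share, 5.40%, was higher in every E-J than in every K-N lymphoma. GPI and PGK1 were higher in every lymphoma of class K-N than in any normal node, and HK1 was higher in every lymphoma of class E-J than in any of class K-N. Of all genes, 8.80% were higher in every K-N lymphoma than in every normal dog. Between the classes 6.26% were higher in every E-J than in every K-N lymphoma. LDHA, the last enzyme of the series, lay between 12.52 and 13.73 over all 14 arrays. As gene values, 0 of the 10 members passed limma's adjusted p of 0.05 between all lymphomas and the 3 normal dogs, where 3.63% of 9400 genes passed. Not overlapping were 0 of the 10, where 2.44% of genes were higher and 5.16% lower in every lymphoma than in every normal dog. At an unadjusted p under 0.05, 1 member passed, PGK1, against 18.7% of all genes, and the methods' t-test with Benjamini-Hochberg adjustment also called 0 members.

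**Figure D1:**
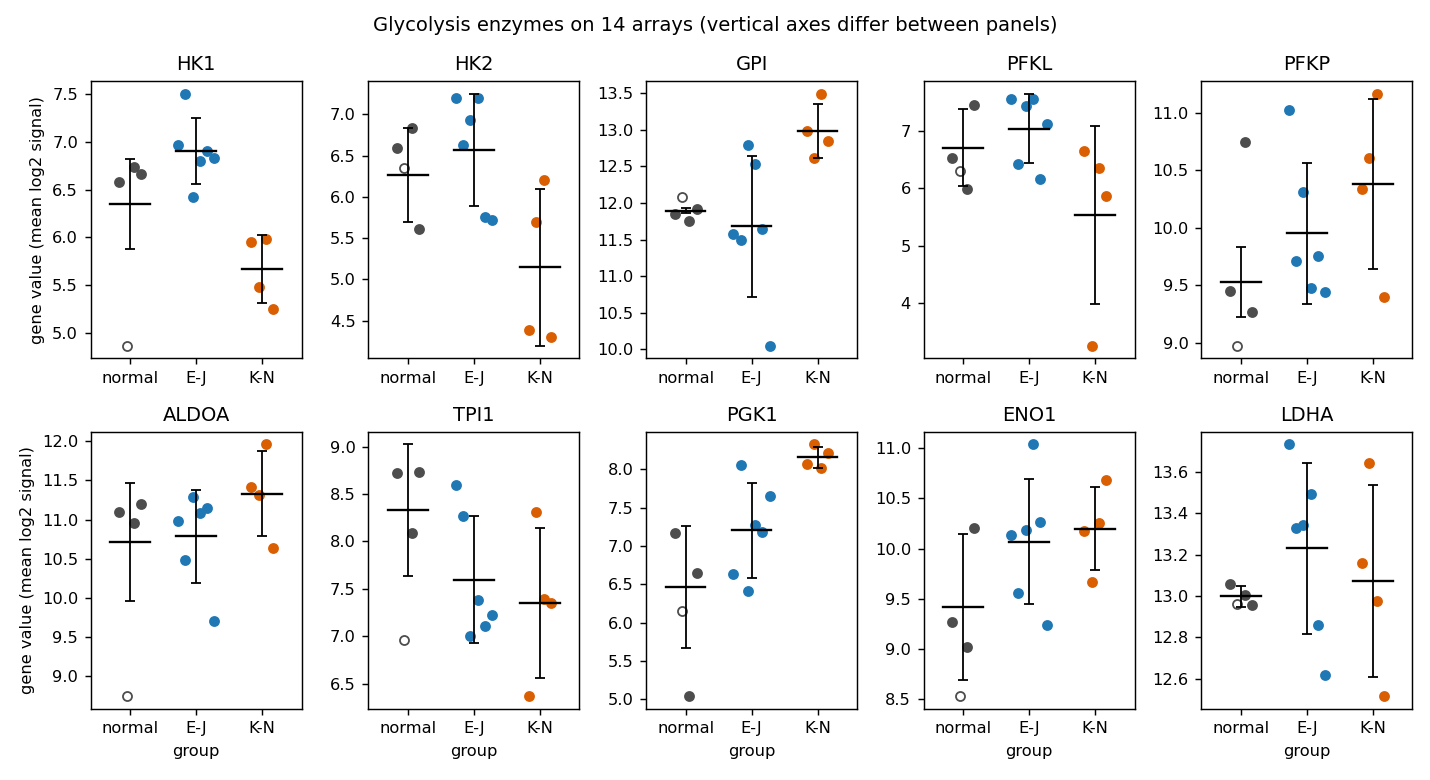
Gene values (mean log2 MAS 5.0 signal over the probe sets of the gene, vertical axis) of the 10 enzymes on each of the 14 arrays, by normal nodes, class E-J and class K-N. Points are arrays, the open circle is normal array 3024l, lines and bars are the mean and SD over dogs with 3024l and 3024r averaged, and the K-N points of GPI, 12.61 to 13.50, and PGK1, 8.02 to 8.33, lie above all normal points.

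HK1 is the hexokinase found in most tissues, and HK2 is the isoenzyme of muscle that many tumours use. The HK1 gene value was 6.66 in normal node 63, 6.58 in 2970, 6.74 in 3024r and 4.87 in 3024l. In class E-J it ran from 6.42 in NE41 through a median of 6.87 to 7.50 in FS22. In class K-N it was 5.98 in RB07, 5.25 in RB10, 5.95 in FS25 and 5.48 in NE45. Every lymphoma of class E-J thus lay above every lymphoma of class K-N, by 1.24 on average or 2.36-fold, and every normal node but 3024l lay above class K-N as well. HK1 probe set 3 was dim on all 14 arrays, with values of 1.82 to 5.46. HK1 probe sets 1 and 2 separated the classes too, by 1.48 and 1.43. Over all features, 6.26% of genes and 5.40% of probe sets were higher in every E-J than in every K-N lymphoma. At probe set 1, 3024l read 5.62 and the other normal nodes 8.04 to 8.93. The lymphomas as a whole had a mean HK1 gene value of 6.41 ± 0.72 (SD, n = 10) and the normal dogs 6.35 ± 0.47 (SD, n = 3), a difference of 0.06 that limma did not separate from 0 (standard error 0.44, adjusted p = 0.961). The sign turned with 3024r alone for its dog, at -0.25.

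HK2 was near the dim limit on most arrays. Its gene value was 5.61 in 63, 6.59 in 2970, 6.83 in 3024r and 6.35 in 3024l, ran from 5.72 in RB16 through a median of 6.78 to 7.20 in FS21 in class E-J, and was 6.20 in RB07, 4.30 in RB10, 4.39 in FS25 and 5.70 in NE45. The 3 groups overlapped, with RB10 and FS25 the lowest arrays of all. HK2 probe set 1 differed from the normal dogs by -0.01 in class E-J and -0.79 in class K-N. Probe set 2, which reached a signal of 100 on 4 arrays, differed by 0.63 and -1.44. Over all lymphomas the difference from normal was -0.26 (limma standard error 0.61, adjusted p = 0.863). The ratio of HK2 to HK1 within a dog, tested for an unequal change of the isoenzymes, differed by -0.32 on the log2 scale between lymphoma and normal (exact permutation test, two-sided, p = 0.584, adjusted over 4 such tests p = 0.584).

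GPI converts glucose 6-phosphate to fructose 6-phosphate, and 1 probe set reads it alone. Its value was 11.92 in 63, 11.85 in 2970, 11.76 in 3024r and 12.08 in 3024l. In class E-J it ran from 10.05 in RB16 through a median of 11.61 to 12.79 in NE41. In class K-N it was 13.50 in RB07, 12.85 in RB10, 12.98 in FS25 and 12.61 in NE45. The normal nodes were close together, class K-N lay above all of them by 1.09 on average or 2.13-fold, and class E-J spread to both sides, with RB16 the lowest array. Among all genes, 8.80% were higher in every K-N lymphoma than in every normal dog and 12.5% were lower, so this count of 2 members, GPI and PGK1, is to be read against those shares. The 2 probe sets that name GPI together with LOC479379 ranked RB07 highest and RB16 lowest too, at 15.18 and 12.35 for the brighter and at 12.30 and 9.38 for the other. Over all lymphomas the difference from normal was 0.31 (limma standard error 0.57, adjusted p = 0.825).

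PFKL and PFKP are the liver-type and platelet-type subunits of phosphofructokinase, the main control point of the pathway. PFKL has 4 probe sets. At PFKL probe set 1 the normal nodes read 9.60 in 63, 8.41 in 2970, 8.25 in 3024r and 8.94 in 3024l. Class E-J read 10.08 in FS21, 10.57 in NE41, 10.61 in NE42, 10.61 in RB03, 10.77 in RB16 and 10.60 in FS22. Class K-N read 9.78 in RB07, 8.03 in RB10, 7.39 in FS25 and 5.57 in NE45. Class E-J was thus narrow and above every other array, by 1.67 over the normal dogs or 3.19-fold and by 2.85 over class K-N or 7.20-fold, while 3 of the 4 lymphomas of class K-N were below the lowest normal node. Of all probe sets tested, 8.17% were higher and 10.4% lower in every E-J lymphoma than in every normal dog, and 5.40% were higher in every E-J than in every K-N lymphoma. PFKL probe set 2 also separated the classes, by 2.46, with 1.77 in NE45 and 5.27 to 5.99 in the other lymphomas of class K-N. Without NE45, where both were dim, the class differences were 2.14 or 4.41-fold at probe set 1 and 1.47 at probe set 2. PFKL probe sets 3 and 4 overlapped between the classes, and probe set 4 was dim on all 14 arrays.

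As a gene value PFKL ran from 3.26 in NE45 to 7.56 in FS21 among the lymphomas and from 5.98 to 7.45 among the normal nodes, a difference of -0.27 (limma standard error 0.72, adjusted p = 0.884). PFKP, read by 1 probe set, was 9.27 in 63, 9.45 in 2970, 10.74 in 3024r and 8.98 in 3024l. It ran from 9.44 to 11.03 in class E-J and from 9.40 to 11.17 in class K-N, with FS21 and RB07 the highest, and the groups overlapped. The difference between all lymphomas and normal was 0.60 (limma standard error 0.40, adjusted p = 0.451), and it was 0.30 with 3024r alone. The ratio of PFKP to PFKL within a dog differed by 0.86 on the log2 scale between lymphoma and normal (exact permutation test, two-sided, p = 0.371, adjusted p = 0.494). This log2 ratio was 7.35 in NE45, whose PFKL was the lowest, and 1.82 to 4.81 in the other 12 dogs. With these group sizes the smallest p that the permutation test can give is 0.0035 between lymphoma and normal and 0.00833 between the labels.

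ALDOA splits fructose 1,6-bisphosphate into the triose phosphates that TPI1 interconverts. At ALDOA probe set 1 the normal nodes read 11.56 to 11.74, class E-J 10.05 to 11.97 and class K-N 11.25 to 12.70, with RB16 the lowest array and RB07 the highest. At ALDOA probe set 2, 3024l read 5.91, whereas the other normal nodes read 10.22 to 10.66 and the lymphomas 9.36 to 11.23. The gene-level difference between lymphoma and normal was 0.29 (limma standard error 0.42, adjusted p = 0.761), and it was -0.08 with 3024r alone.

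TPI1 was the member with the largest negative difference between all lymphomas and normal. Its gene value was 8.74 in 63, 8.72 in 2970, 8.09 in 3024r and 6.96 in 3024l. The lymphomas ran from 6.37 in FS25 through a median of 7.37 to 8.60 in FS21. Of the lymphomas, 7 lay below normal nodes 63, 2970 and 3024r, whereas FS21, FS22 and NE45 reached their range. The difference was -0.83 (limma standard error 0.44, adjusted p = 0.339). TPI1 probe set 3 was dim on all 14 arrays, and the same 3 lymphomas had its highest lymphoma values, 5.61 to 5.95, beside 6.20 in 63 and 6.35 in 2970. The bright TPI1 probe sets differed by -0.65 for probe set 1 and -0.36 for probe set 2 (limma adjusted p = 0.384 and 0.570). At probe set 1, class K-N read 9.35 in RB07, 9.23 in RB10, 8.68 in FS25 and 9.80 in NE45, below normal nodes 63, 2970 and 3024r at 10.16 to 10.96, while 3024l read 9.72. With 3024l and 3024r averaged, class K-N did not overlap with the normal dogs at this probe set, where 11.5% of all probe sets were lower in that way.

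PGK1 makes the first ATP of the pathway. Its gene value was 6.64 in 63, 7.16 in 2970, 5.04 in 3024r and 6.15 in 3024l. In class E-J it ran from 6.41 in NE41 through a median of 7.23 to 8.06 in FS22. In class K-N it was 8.02 in RB07, 8.21 in RB10, 8.07 in FS25 and 8.33 in NE45, above every normal node and near the top of class E-J. The difference between all lymphomas and normal was 1.12, or 2.17-fold, with an unadjusted limma p of 0.0266 and an adjusted p of 0.194. Dim probe sets gave most of this size. PGK1 probe set 3 read 1.64 to 3.85 in the normal nodes, 1.18 to 6.07 in class E-J and 6.12 to 7.18 in class K-N, and reached a signal of 100 on 2 arrays. Class K-N was above both other groups there, where 4.32% of all probe sets were lower in every E-J than in every K-N lymphoma. PGK1 probe set 2 reached a signal of 100 on 1 array. The bright probe set, PGK1 probe set 1, was 11.50 in 63, 11.83 in 2970, 11.64 in 3024r and 11.33 in 3024l. It was 11.09 to 11.99 in class E-J and 12.36 in RB07, 11.91 in RB10, 12.28 in FS25 and 12.05 in NE45. Class K-N lay above the normal nodes here too, by 0.54 or 1.46-fold, as 8.59% of all probe sets did, and over all lymphomas the difference was 0.22 (limma standard error 0.27, adjusted p = 0.729).

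ENO1, the enolase of most tissues, has 4 probe sets, and 3 of them were bright on all 14 arrays. ENO1 probe set 1 read 12.88 in 63, 12.97 in 2970 and 13.18 in 3024r, with 3024l between the last pair. The lymphomas read 13.51 in FS25, 13.68 in FS22, 13.79 in RB03, 13.82 in RB10, 13.90 in RB16, 14.18 in NE42, 14.23 in NE41, 14.25 in NE45 and 14.48 in RB07, with FS21 between RB16 and NE42, so the groups did not overlap and both classes were raised by about the same size, 0.98 in class E-J and 1.03 in class K-N. ENO1 probe set 2 read 10.50 to 11.01 in the normal nodes and 10.96 to 12.73 in the lymphomas, with RB16 and FS25 at 10.96 just below node 3024r, and the groups did not overlap once 3024l and 3024r were averaged. ENO1 probe set 3 overlapped, with RB16 at 9.70 and 3024l at 8.72. The dim ENO1 probe set 4 varied from 1.37 to 6.65 with no order by group.

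In limma over 19592 probe sets, ENO1 probe set 1 was 1.00 higher in the 10 lymphomas than in the 3 normal dogs (standard error 0.24, 95% interval 0.49 to 1.51, adjusted p = 0.0440). It was the 1 member probe set of 19 tested that passed, where 0.796% of all probe sets passed as higher and 1.77% as lower. Not overlapping were 2 of the 19 as higher and 0 as lower, against 2.48% and 4.91% of all probe sets. ENO1 probe set 2 differed by 0.95 (standard error 0.36, adjusted p = 0.183) and probe set 3 by 0.69 (standard error 0.41, adjusted p = 0.394). The gene value, which takes in the dim probe set, differed by 0.70 (standard error 0.38, adjusted p = 0.342). With genes summarised as the mean of linear signals, as the study's methods did, ENO1 rose by 0.95 (limma adjusted p = 0.0366), where 1.72% of genes passed as higher. Read by its brightest probe set alone it also passed, where 0.889% of genes did as higher. The call of ENO1 probe set 1 held in 3 of 13 fits with 1 dog left out, those without RB03, RB07 or FS25. Over the 13 fits the difference stayed between 0.95 and 1.06 and the adjusted p between 0.0384 and 0.192. Leaving out normal 63, 2970 or 3024 gave adjusted p of 0.154, 0.192 and 0.121, and quantile normalization gave a difference of 0.80 (limma adjusted p = 0.0730).

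**Figure D2:**
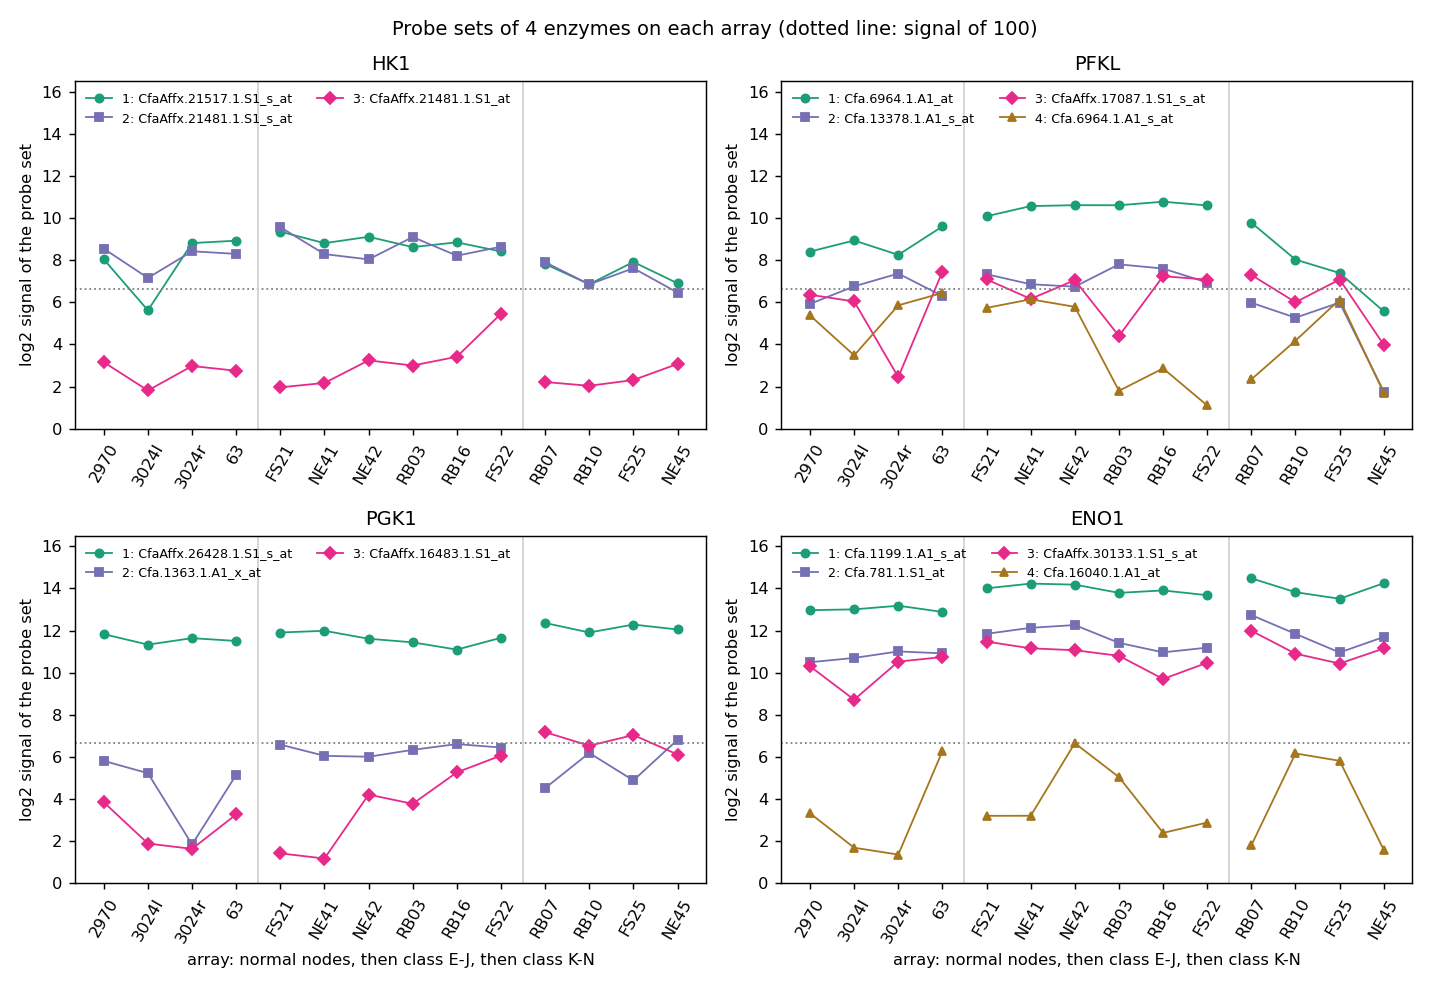
Log2 signal (vertical axis) of each probe set of HK1, PFKL, PGK1 and ENO1 on the 14 arrays, ordered as normal nodes, class E-J and class K-N, with a dotted line at a signal of 100 (6.64). Probe sets are numbered as in the text, ENO1 probe set 1 is at 13.18 or less in the normal nodes and at 13.51 or more in the lymphomas, PFKL probe set 1 is between 10.08 and 10.77 across class E-J, and the PGK1 probe sets under the line vary more than the one above it.

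LDHA turns pyruvate to lactate. Its gene value was 12.96 in 63, 13.06 in 2970, 13.01 in 3024r and 12.96 in 3024l. In the lymphomas it ran from 12.52 in RB10 through a median of 13.24 to 13.73 in FS21. LDHA probe set 1 lay between 12.99 and 13.98 and probe set 2 between 11.97 and 13.60 over all arrays. As gene values the normal nodes were nearly equal and the lymphomas lay on both sides of them. The difference was 0.17 (limma standard error 0.28, 95% interval -0.43 to 0.77, adjusted p = 0.798). In class E-J, RB16 was the lowest at 12.62, as it was for GPI and ALDOA.

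For B-cell disease alone, the study set 4 lymphomas, RB16, RB03, NE42 and FS21, against 1 node of each normal dog, with 3024r for dog 3024. Absence of T-cell expression in these profiles was among the criteria for that set, and it shares its normal dogs with the comparison above. All 4 lymphomas are in class E-J, so tests in this set are no independent check of the values by class. As gene values 0 of 10 members passed, where 10.9% of 8295 genes passed, 3.48% as higher and 7.39% as lower, and 0 passed at an unadjusted p under 0.05 (30.0% of genes). The methods' t-test called 0 members as well. HK1 was the 1 member whose values did not overlap, 6.80 to 6.96 against 6.58 to 6.74, with a difference of 0.21 (limma standard error 0.19, adjusted p = 0.489); 13.7% of genes were higher and 18.0% lower without overlap.

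Among probe sets, PFKL and ENO1 passed in the B-cell set. PFKL probe set 1 was 10.08 in FS21, 10.61 in NE42, 10.61 in RB03 and 10.77 in RB16, against 9.60, 8.41 and 8.25 in 63, 2970 and 3024r. It was 1.76 higher (limma standard error 0.38, adjusted p = 0.0383 over 17289 probe sets). ENO1 probe set 1 was 0.96 higher (limma standard error 0.22, adjusted p = 0.0441). Of all probe sets 2.49% passed as higher and 5.55% as lower. With genes as the mean of linear signals both passed too, PFKL at 1.39 (limma adjusted p = 0.0280) and ENO1 at 0.87 (limma adjusted p = 0.0339), where 5.67% of genes passed as higher, and so they did by their brightest probe set, where 3.99% did. PFKL probe set 1 passed in 3 of 7 fits with 1 dog left out, those without FS21, RB03 or 63 (differences of 1.51 to 2.19, adjusted p of 0.0379 to 0.156) and ENO1 probe set 1 in 1 of 7, that without RB03 (0.89 to 1.04, adjusted p of 0.0404 to 0.169). With 3024l in place of 3024r the adjusted p was 0.0849 for PFKL and 0.100 for ENO1. Over the same arrays 6 of 11 T-cell markers, 8 of 11 myeloid markers and 8 of 9 endothelial and stromal markers fell and 1 of 6 B-cell markers rose; their part in the PFKL and ENO1 differences was not tested.

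Between the 7 lymphomas labelled B-cell and the 3 labelled T-cell, 0 of 10 members and 0 of 8567 genes passed limma's adjusted p of 0.05. At an unadjusted p under 0.05 the members numbered 0 and all genes 3.65%. The largest member differences were PFKL at 1.42 (standard error 0.71, 95% interval -0.16 to 2.99), PGK1 at -0.81 (standard error 0.40, 95% interval -1.70 to 0.09) and HK2 at 0.61 (standard error 0.67, 95% interval -0.87 to 2.10), with limma adjusted p of 0.956 for each. Of 18086 probe sets 0 passed, and at an unadjusted p under 0.05 the members' probe sets numbered 2, against 3.28% of all probe sets, HK2 probe set 1 at 1.26 (limma unadjusted p = 0.0245) and PFKL probe set 1 at 2.21 (limma unadjusted p = 0.0403). NE45, with 3.26, gave the PFKL gene difference most of its size, which was 0.32 without it. The isoenzyme ratios differed by 0.47 for HK2 to HK1 (exact permutation test, two-sided, p = 0.325, adjusted p = 0.494) and by -1.55 for PFKP to PFKL (exact permutation test, two-sided, p = 0.15, adjusted p = 0.494).

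When FS22, RB07 and RB10, whose markers went against the label, were left out, 5 B-cell and 2 T-cell lymphomas remained. The 5 are all in class E-J and the 2 in class K-N, so label and class cannot be told apart here. The classes came from these profiles, and the dogs were left out by markers read from the same arrays. The p-values of this fit therefore test neither label nor class, and no conclusion is drawn from them. In this fit 3.39% of 7867 genes passed and 0 of 10 members did. At an unadjusted p under 0.05 the members numbered 4 and all genes 18.9%. HK1 was 1.07 higher in the B-cell lymphomas (limma standard error 0.29, adjusted p = 0.0992), HK2 1.52 higher (adjusted p = 0.217), PFKL 2.21 higher (adjusted p = 0.212) and PGK1 lower, at -1.16 (adjusted p = 0.167). This fit was added after the values had been seen.

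**Figure D3:**
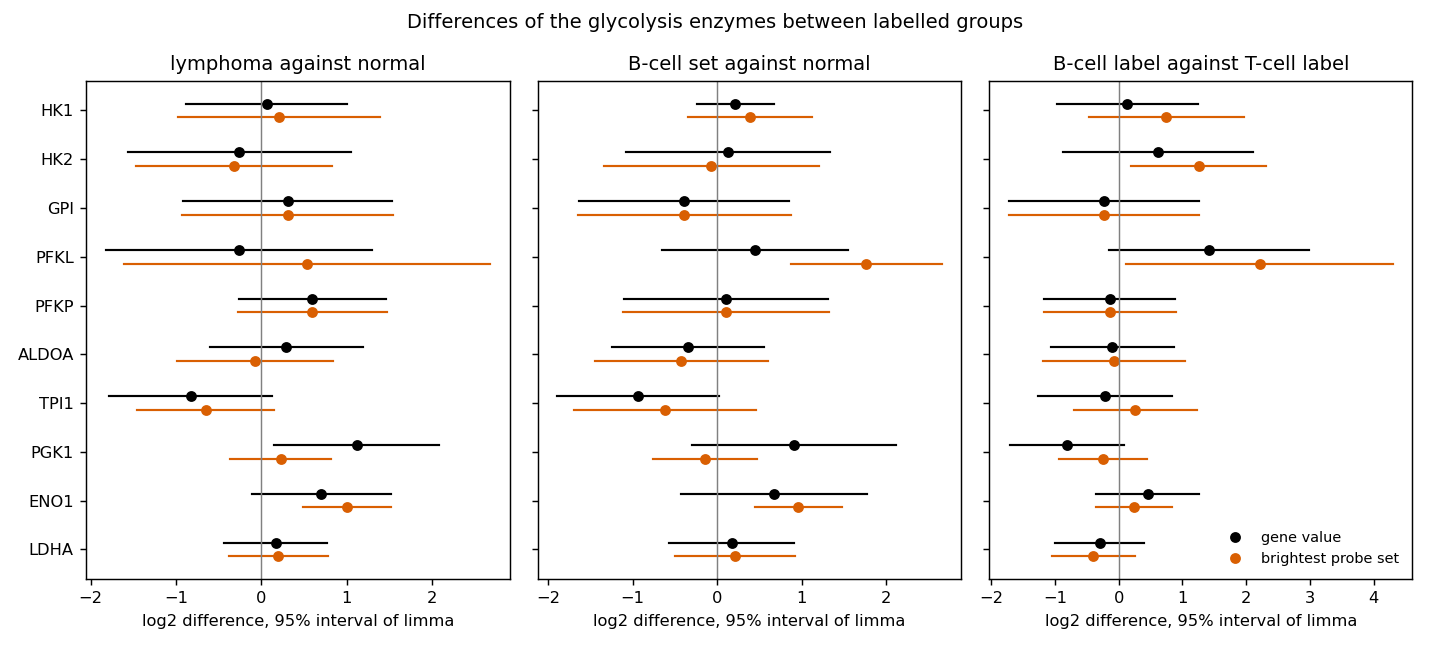
Log2 differences (points, horizontal axis) with 95% intervals from limma (lines) for each enzyme in the 3 comparisons of labelled groups, as the gene value (black) and as probe set 1 (orange). The orange interval of ENO1 lies above 0 in the first and second panels, at 0.49 to 1.51 and 0.44 to 1.47, and that of PFKL in the second, at 0.87 to 2.66.

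The classes were set side by side against the same 3 normal dogs. In class E-J 8 of the 10 gene values were above normal on average, as 49.8% of all genes were. The median difference was 0.32 against -0.01 over all genes, and 0 members were clear of the normal dogs, where 9.20% of genes were higher and 10.9% lower. Among the 8, ALDOA at 0.07 had a mean of 10.78 in class E-J, below 11.20 in normal dog 63 and 11.10 in 2970. PGK1 at 0.74, ENO1 at 0.65 and HK1 at 0.56 were the highest, and TPI1 at -0.73 the lowest. Without normal dog 3024 these were 0.30, 0.33, 0.28 and -1.13. In class K-N 6 of 10 were above normal, against 45.9% of all genes, with a median of 0.35 against -0.07. PGK1 at 1.69, GPI at 1.09 and PFKP at 0.85 were the highest there, and PFKL at -1.17, HK2 at -1.12 and TPI1 at -0.97 the lowest. Without NE45 the PFKL difference was -0.41, and without FS25 that of TPI1 was -0.65. Between the classes HK1 was the 1 member without overlap, where 6.26% of genes were higher in class E-J and 4.45% lower. HK2 differed by 1.43 and PFKL by 1.51, both higher in class E-J, and GPI by -1.30, higher in class K-N, each with overlap, and the PFKL difference was 0.75 without NE45. As gene values HK1, HK2 and PFKL thus lay on the other side of normal from GPI in both classes, except that in class E-J HK2 was at -0.02 without normal dog 63 and GPI at 0.11 without RB16. At its brighter probe set alone, HK2 was at -0.01 in class E-J. Leaving out 1 dog at a time was added after the values had been seen. The summed signal of 7 B-cell markers was 9413 to 27500 in class E-J and 240.3 to 2484 in class K-N, and the part of the lineage in these differences was not tested.

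**Figure D4:**
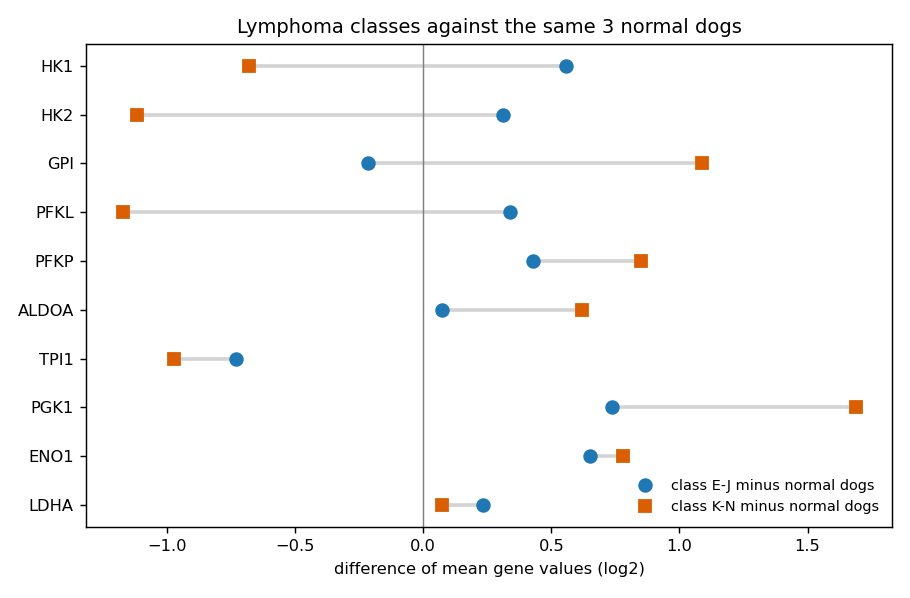
Difference of the mean gene value from the same 3 normal dogs (log2, horizontal axis) for class E-J (circles, n = 6) and class K-N (squares, n = 4), joined by a line for each enzyme. HK1, HK2 and PFKL lie above 0 in class E-J and below 0 in class K-N, GPI the other way round, and ENO1 at 0.65 and 0.78 and TPI1 at -0.73 and -0.97 lie on the same side in both. At probe set 1 alone, which is not drawn, HK2 was at -0.01 in class E-J.

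The members did not move as 1 block across dogs. The 13 dogs span the normal group and both classes, so correlations over them take in differences between groups. Pearson's r between gene values was highest for GPI and ALDOA at 0.74, then HK2 and LDHA at 0.58. It was lowest for HK1 and GPI at -0.60 and HK2 and PGK1 at -0.54. The mean of the members, each centred on its own mean, was highest in FS21 at 0.43, NE42 at 0.37 and RB07 at 0.37 and lowest in normal dog 3024 at -0.51 and RB16 at -0.45. Dog 3024 averages in array 3024l, where the 3′ to 5′ ratio of the GAPDH control was 23.2. The part of that array in this mean and in the correlations was not tested. The genes whose values over the 13 dogs were most like this mean, of 9390 other genes, were VPS72 (r = 0.87), CSNK2B (0.85), ANKRD39 (0.85), PAM16 (0.84) and LOC479485 (0.84). VPS72 encodes a subunit of chromatin remodelling complexes and CSNK2B the regulatory subunit of casein kinase II.

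Other genes of sugar metabolism were counted from lists drawn up beside the members. Between all lymphomas and normal, 0 of 9 other glycolysis enzymes and isoforms, 0 of 4 regulators of glycolytic flux, 0 of 6 genes of the pentose phosphate pathway, 0 of 12 genes of pyruvate entry to mitochondria and 0 of 5 glucose and lactate carriers passed limma's adjusted p of 0.05. At an unadjusted p under 0.05 these lists held 1, 1, 0, 2 and 1 genes, where 18.7% of all genes passed. Of these, ENO3 at 1.64, the lactate carrier SLC16A1 at 0.86 and PDHA1 at 0.57 were higher. GNPDA1 at -1.22 and PDK4 at -3.43 were lower (limma adjusted p of 0.0933 to 0.192 for the 5). SLC2A1, a glucose transporter of most cells, differed by -0.19 (limma standard error 0.58, adjusted p = 0.897) and PKM, the pyruvate kinase of most tissues, by -0.18 (standard error 0.39, adjusted p = 0.852). Of 11 genes of gluconeogenesis and glycogen 1 fell, UGP2, which makes UDP-glucose for glycogen, at -1.03 (limma standard error 0.25, adjusted p = 0.0413), with 10.11 ± 0.32 (SD, n = 10) in the lymphomas and 11.14 ± 0.28 (SD, n = 3) in the normal dogs. Among all genes, 1.03% rose and 2.60% fell. Of 14 genes of the hypoxia pathway and its targets 2 fell and 0 rose, with a median of -0.57 against -0.03 over all genes. They were EPAS1, a hypoxia-inducible factor that endothelial cells and macrophages also express, at -2.18 (limma standard error 0.50, adjusted p = 0.0343), and VEGFA, a growth factor of blood vessels, at -1.71 (limma standard error 0.41, adjusted p = 0.0407). Endothelial and stromal markers moved with them, since 5 of 9 fell and 0 rose, among them CXCL12 at -3.65 and DCN at -5.45, and their summed signal was 13360 to 18480 in the normal nodes and 1696 to 7809 in the lymphomas; their part was not tested.

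Of 13 genes of cell division 4 rose and 0 fell between all lymphomas and normal, where 1.03% of all genes rose and 2.60% fell. BUB1B, a spindle checkpoint kinase, was 2.28 higher (limma standard error 0.42, adjusted p = 0.0153) and TTK, another such kinase, 1.74 higher (standard error 0.39, adjusted p = 0.0328). TOP2A, the topoisomerase of dividing cells, was 1.57 higher (standard error 0.40, adjusted p = 0.0487), and CDK1, the kinase that starts mitosis, 0.99 higher (standard error 0.26, adjusted p = 0.0498). The list's median was 1.22, against 0.23 for the glycolysis members and -0.03 for all genes. The 9 other glycolysis enzymes and isoforms tested had a median of -0.39, and 2 of them were above 0. Of the myeloid markers 7 of 11 fell, with CD209 at -6.72, MARCO at -6.33, MRC1 at -5.34 and MSR1 at -4.00 (limma adjusted p of 0.00401 to 0.00938). T-cell markers (0 of 11), B-cell markers (0 of 6) and neutrophil markers (0 of 3) did not pass, and of the red cell markers tested 1 of 2 rose, ALAS2, which starts haem synthesis, at 2.70 (limma standard error 0.69, adjusted p = 0.0486).

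In the B-cell set, ALDOC, an aldolase isoform, fell by 1.76 on the log2 scale (limma standard error 0.24, adjusted p = 0.0100), 1 of 9 other glycolysis enzymes and isoforms tested. PDK3, a kinase that shuts off pyruvate dehydrogenase, rose by 1.33 (limma standard error 0.20, adjusted p = 0.0132), 1 of 12 genes of pyruvate entry. Among all genes of this set, 3.48% passed as higher and 7.39% as lower. UGP2 was at -1.27 and, of the hypoxia list, EPAS1 at -2.68, VEGFA at -1.32 and ADM, a vasodilator peptide, at -1.82 (limma adjusted p of 0.0180 to 0.0337). The remaining metabolic lists had 0 calls in this set, and between the labels every list had 0 calls in limma.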

How the data were processed

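The authors amplified RNA with WT-Ovation Pico, labelled it with biotin and hybridised it to the GeneChip Canine Genome V2.0 Array. The deposited value is a linear intensity per probe set, the MAS 5.0 signal, with every array brought to a trimmed mean of 500 by the authors. MAS5 is named in the submitters' processing notes, and its version is not given in the sources used here. Scaling to a common mean hides a change shared by most genes, and MAS 5.0 leaves dim probe sets noisy on the log2 scale.

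The log2 of each signal was averaged over the probe sets of a gene, and no array was scaled again. Symbols are those of the array's annotation. Tests took genes whose value corresponded to a signal of 100 or more on 3 or more of the arrays compared, in limma 3.58.1 in R 4.3.3 (lmFit, eBayes, Benjamini-Hochberg, threshold 0.05); 19 of 25 member probe sets and 10 of 10 member genes passed this filter over all 14 arrays. Nodes 3024l and 3024r were averaged into 1 dog, except in the B-cell set, which uses 3024r. Exact permutation tests compared isoenzyme ratios. The test was checked on simulated data. Figures were drawn with matplotlib 3.10.9 in Python 3.11.15. Array batches are not given per sample, so they could not be fitted. Replicates are dogs, so p-values set a difference against the spread between dogs, and the normal dogs were all colony Beagles.

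The members, the gene lists and the comparisons were chosen with earlier results of these data known. All 10 members are named with each probe set, of other lists up to 4 genes with the smallest p in the comparison of all lymphomas, and the 5 genes most like the members' mean. SLC2A1, PKM, ENO3, SLC16A1, PDHA1, GNPDA1, PDK4, ALDOC, PDK3 and ADM were added after their values were seen. Alternatives changed the filter, scaling, pseudocount (50), floor (100), gene summary, unit, test, the fit, the nodes of dog 3024 and the dogs included. RNA-Seq and detection calls were not used here, and no sequence or coordinates are given.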

Additional observations from a re-analysis of the deposited data

Results flagged for a closer look

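On 4 occasions, among 50 pairs of a member and a group, 1 array lay far from the rest of its group for the group's range; chance flags about 1 in 20 such groups. HK1 was 4.87 in normal array 3024l, with the nearest normal array at 6.58, and ALDOA was 8.74 there, with the nearest at 10.95. The 3′ to 5′ ratio of the GAPDH control was 23.2 on that array, and its part in these values was not tested. PFKL was 3.26 in NE45, with the nearest lymphoma at 5.87, and all 4 of its probe sets were under their median over the arrays there. TPI1 was 8.60 in FS21, with the nearest B-cell lymphoma at 7.40, and the dim TPI1 probe set 3 was 5.95 in FS21 and 1.62 to 4.40 in the other B-cell lymphomas.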

How the results depend on the processing

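With all lymphomas against normal, the count of members called, 0, became 1 (ENO1, higher) with the mean of linear signals, with the probe set of highest mean signal, with probe sets as the unit, and with probe sets as the unit and 3024r alone, the last added after seeing the data. In the B-cell set it became 2 (PFKL and ENO1, higher) with the first 3 of these. With 1 dog left out the count was 0 throughout for all lymphomas and for the labels, and 0 to 1 for the B-cell set, where TPI1 passed without FS21 at -1.28 (limma adjusted p = 0.0411). Between the labels it was 0 under every alternative. The 4 isoenzyme ratios passed under none. The genes called of all tested, 341 for all lymphomas, were 3 without 2970, 57 without 3024, 87 without 63, 112 without the filter, 197 with 3024l alone, 557 with linear means, 744 with the pseudocount, 893 with Welch's t-test and 959 with the floor. In the B-cell set, 902 became 15 without 2970, 25 without 3024r, 70 without 63, 593 without NE42, 193 without the filter, 232 with 3024l, 8 with Welch's t-test, 168 in 1 fit of 3 groups, 1424 with linear means, 1613 with the pseudocount and 1807 with the floor. The study ran its t-test at a looser threshold, so these are not its counts. The member differences and isoenzyme ratios that were not called gave 682 fits over the alternatives. Of these fits 50 had the opposite sign, and the cause was not tested. No paired analysis was possible because the groups compared hold different dogs. Dog 3024 as a random block could not be fitted, since only this dog has a pair of arrays. Probe sets under a signal of 100 limit the gene values of HK1, HK2, PFKL, TPI1, PGK1 and ENO1.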

Other observations

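The 4 probe sets that name LDHA together with LOC490690, LOC485449 and LOC482405 were dim on nearly every array, with values of 0.42 to 6.67, and showed no order by group. The 2 probe sets shared by GPI and LOC479379 were bright on all 14 arrays.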
